A study of Mus musculus with 16 samples.

Results

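Protocadherins are the largest subfamily of the cadherins, calcium-dependent adhesion proteins of the cell surface. Most mammalian protocadherins lie in 3 neighbouring gene clusters, Pcdha, Pcdhb and Pcdhg, in which each variable exon has its own promoter and a cell uses only some of them. The proteins then bind like proteins on other cells, which gives neurons a surface identity and lets the branches of a neuron avoid each other. The non-clustered protocadherins are single genes on several chromosomes that act in cell sorting, axon growth and, for some members, outside the nervous system. The members described here were all RefSeq transcript rows whose gene symbol begins with Pcdh. They were 95 of the 33701 RefSeq rows in the expression table and belonged to 70 genes. The clusters held 14 Pcdha, 22 Pcdhb and 22 Pcdhg rows, 1 for each symbol, and the non-clustered genes held 37 rows of 12 genes. Of the 95 rows, 84 were above 0 in at least 1 library and were tested. The 11 rows at 0 in every library were 10 of the 14 rows of Pcdh15 and 1 of the 2 rows of Pcdh8, so all 70 genes were tested.

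The samples were embryoid bodies, floating aggregates of differentiating cells, grown from the R1 line of mouse embryonic stem cells. Bodies were formed for 4 days without the factor LIF, which keeps stem cells undifferentiated, and were collected either at that point, named day 0, or after 4 more days in 2 µM retinoic acid (RA), named day 4. The procedure was done 2 times, which gave 2 RNA samples per day, and each RNA sample was split over 4 vials that received different synthetic spike-in mixes, mix 4 holding none of the mouse transcripts. The 16 libraries are therefore 4 RNA samples, and the vials measure technical spread only. There were no bodies of the later age without RA, so the effects of RA and of 4 further days of culture cannot be told apart. In bulk RNA, fewer cells of a type and less RNA per cell cannot be told apart either. Values are FPKM, the sequenced fragments of a transcript scaled to its length in kilobases and to the size of the library, and each RNA sample is given as the mean of its 4 vials, RNA sample 1 first. A change is a difference in log2(FPKM + 0.1) between day 4 and day 0, tested with limma over 20496 genes with 2 RNA samples per day, and rose and fell are used for an adjusted p of at most 0.05.

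Libraries of 1 RNA sample stood apart. In RNA sample 2 of day 0, the libraries of mixes 3 and 4 correlated with each other at 0.971 and those of mixes 1 and 2 at 0.963 (Pearson, log2 FPKM over rows), but the correlations between these pairs were only 0.740 to 0.838. Within each of the other 3 RNA samples all correlations were 0.952 or higher. The difference followed the base composition of the transcripts, read over 13893 rows of a mean of at least 1 FPKM, which 18 of the 70 Pcdh genes reach. From mixes 1 and 2 to mixes 3 and 4, the median log2 difference was 0.652 for rows under 45% GC. It was -1.466 for rows of 54 to 56% GC and -2.421 for rows of 58% or more. The day comparison carried a gradient of the same direction, from a median log2 change of 0.477 for rows under 45% GC to -1.593 for rows of 58% or more. GC content is therefore given beside the results it touches, together with values without mixes 3 and 4 of that RNA sample and values corrected for GC content. The median log2 deviation of rows of at least 57.8% GC, minus that of rows up to 41.6%, was -2.091 and -1.684 in those mixes. It was 1.046 or higher in all other day 0 libraries and -0.347 or lower in all day 4 libraries. Without those mixes the days thus differ fully in GC bias, and a call gained there cannot be told apart from it.

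The clusters follow each other on chromosome 18 of the mouse genome (GRCm38), Pcdha at 36930285 to 37187657, Pcdhb at 37264938 to 37524479 and Pcdhg at 37661793 to 37841873, in the GENCODE M21 annotation. All 14 Pcdha isoforms have 4 exons, a long first exon of their own and 3 constant exons of 59, 89 and 2712 bases, which make up a median of 53.45% of the transcript. The 22 Pcdhg isoforms also have 4 exons and share constant exons of 59 and 89 bases, and 17 of them share the same last exon of 1971 bases. In Pcdhga2, Pcdhgb1, Pcdhgb4 and Pcdhga9 this exon ends at 37841870 instead of 37841873, so they share 2116 bases in all, against 2119. Pcdhgb8 shares only 375 bases. Reads from these constant exons cannot be assigned to an isoform by sequence, and RSEM divided them by the reads in the first exons. The Pcdhb genes have a single exon and no constant exon, and in GENCODE M21 the only overlap is a stretch of 455 bases common to Pcdhb21 and Pcdhb22. In RefSeq these genes do not overlap, since Pcdhb21 ends at 37516363 and Pcdhb22 starts at 37518353. The single Pcdha and Pcdhg isoform levels are accordingly less certain than the Pcdhb levels or the cluster sums.

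Most protocadherin genes were higher at day 4. Of the 70 genes, 42 rose and 6 fell, against 16% of all genes tested that rose and 14.5% that fell. The median change over the 70 genes was 1.24, whereas the median over all genes was -0.03. Over single libraries, 45 genes had all 8 day 4 libraries above all 8 day 0 libraries and 3 had them all below, where the shares over all genes were 19.8% and 14.6%. By group, the counts ran as follows. In Pcdhb, 21 of 22 genes rose and none fell, with a median change of 3.43. In Pcdha, 6 of 14 rose and 1 fell, in Pcdhg 8 of 22 rose and 3 fell, and of the 12 non-clustered genes 7 rose and 2 fell. Without mixes 3 and 4 of day 0 RNA sample 2, 47 Pcdh genes rose and 8 fell, against 27.1% and 33.6% of all genes. After correction for GC content 49 rose and 6 fell, against 27.5% and 24.3% of all genes. Leaving out either day 4 RNA sample left no call in the whole table, with 34 or 38 of the 58 clustered genes higher and 0 or 1 lower at an unadjusted p under 0.05, against 16% or 15.6% of all genes higher and 8.08% or 7.41% lower. Without day 0 RNA sample 1, 35 Pcdh genes rose and 3 fell, against 11.3% and 10.1% of all genes. Pcdha6, Pcdha10, Pcdhga3, Pcdhga4, Pcdhgb1, Pcdhgb5, Pcdhga11, Pcdhgc4, Pcdh1 and Pcdh20 then no longer passed (adjusted p from 0.0504 for Pcdh1 to 0.0778 for Pcdha10). Without day 0 RNA sample 2, 37 rose and 6 fell, against 17.9% and 27.1% of all genes, and Pcdha6, Pcdha10, Pcdhga3, Pcdhga4 and Pcdhgb5 no longer passed (adjusted p from 0.0519 for Pcdhgb5 to 0.0573 for Pcdhga4).

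The Pcdhb genes, whose single-exon transcripts encode complete adhesion proteins, gave the largest change of the 3 clusters. Their summed FPKM was 1.05 and 1.03 in the day 0 RNA samples and 41.0 and 44.3 in the day 4 RNA samples, a 40.9-fold ratio of the day means. The 8 day 0 libraries lay between 0.789 and 1.24 and the 8 day 4 libraries between 40.2 and 45.9, with no overlap. The day 0 level was mostly that of 1 gene, Pcdhb22, the last gene of the cluster, which held 68.5% of the Pcdhb sum. It had 0.746 and 0.683 FPKM at day 0 and 8.54 and 9.09 at day 4, and it remained the highest Pcdhb gene with 20.7% of the sum. It rose by 3.45 ± 0.21 (log2, SE, adjusted p = 0.0048). The largest change in the cluster was that of Pcdhb11, from 0.0325 and 0.0318 FPKM to 5.84 and 6.47, a change of 5.56 ± 0.23 (adjusted p = 0.0046). Pcdhb19 went from 0.0242 and 0.022 FPKM to 3.83 and 4.41, and Pcdhb20 from 0.0162 and 0.0148 to 3.35 and 3.40. In each of these genes every day 4 library was above every day 0 library. The changes of genes near 0 at day 0 depend on the added 0.1 and understate the ratio of the FPKM values. Pcdhb8 and Pcdhb13 were listed at 0 in all day 0 libraries and reached 0.524 and 0.424 FPKM and 0.186 and 0.238 FPKM at day 4. The one Pcdhb gene that did not pass the test, Pcdhb1, the first of the cluster, had 0.0107 and 0.0122 FPKM at day 0 and 0.0565 and 0.024 at day 4 (adjusted p = 0.141, and adjusted p = 0.0497 with the replicate number as a block).

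**Figure D1:**
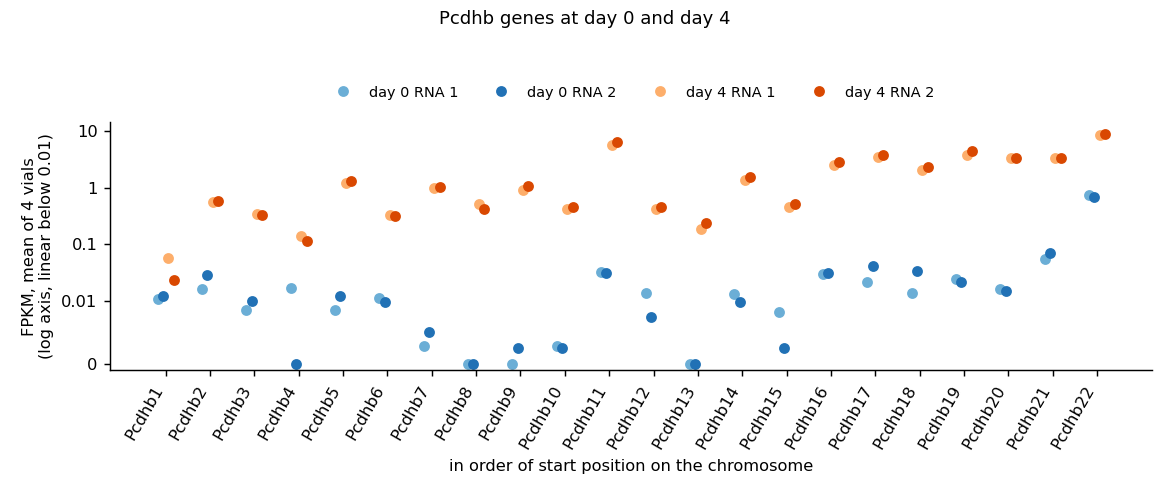
FPKM of the 22 Pcdhb genes (vertical log axis, linear below 0.01) in the order of their start positions, with 1 point for each of the 4 RNA samples, the mean of its 4 vials. The day 4 points of every gene but Pcdhb1 lie far above its day 0 points, and the genes from Pcdhb16 to Pcdhb22, with Pcdhb11, are the highest at day 4.

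The Pcdhb genes did not reach like levels at day 4. In both day 4 RNA samples, 8 genes were above 2 FPKM, namely Pcdhb11 and the 7 genes from Pcdhb16 to Pcdhb22, and the other 14 were below it. Start position and day 4 FPKM had a Spearman correlation of 0.727 over the 22 genes, which share the same libraries. GC content here is that of the matched GENCODE M21 transcripts. By this measure the genes at the far end of the cluster were also lower in GC, and GC content and change had a correlation of -0.667. Some of these transcripts run beyond the RefSeq gene, such as Pcdhb14, to 37456350 against 37451094, and Pcdhb22, to 37524479 against 37521419. Their GC content may thus differ from that of the quantified transcripts. The order of the genes was close to the same in both day 4 RNA samples (Spearman 0.991). The GC content of Pcdhb transcripts ran from 39.1 to 49.0%, and after correction for it 21 of 22 genes rose, as they did without mixes 3 and 4 of day 0 RNA sample 2. The log2 ratio of the cluster sum was 5.35, and it was 5.025 after GC correction and 5.41 without those mixes.

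In the Pcdhg cluster the sums of the A and B types were higher at day 4 in every library, while the C types had a lower mean sum with libraries that overlapped. A and B types are the alternate isoforms chosen in varying combinations by single neurons, while C types have first exons unlike the others and are known in neurons for broader use. The summed FPKM of the whole cluster was 23.2 and 14.1 at day 0 and 22.5 and 19.8 at day 4, so the days overlapped, with a ratio of day means of 1.14. The log2 ratio of 0.18 was -0.131 without day 0 RNA sample 2, -0.01 from mixes 1 and 2 alone and 0.853 after GC correction. The 12 A types summed to 6.57 and 4.48 FPKM at day 0 and to 10.7 and 9.67 at day 4. The 7 B types summed to 3.47 and 2.92 FPKM at day 0 and to 6.46 and 5.94 at day 4. For both types all 8 day 4 libraries were above all 8 day 0 libraries. The 3 C types summed to 13.1 and 6.65 FPKM at day 0 and to 5.42 and 4.17 at day 4. Here the 2 libraries that stood apart decided the overlap. In RNA sample 2 of day 0 the C types were at 11.7 and 8.32 FPKM in mixes 1 and 2 but at 2.93 and 3.61 in mixes 3 and 4, below all day 4 libraries, which began at 4.05. Most of the C-type sum was Pcdhgc3, whose change was 0.03 after GC correction (adjusted p = 0.797).

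**Figure D2:**
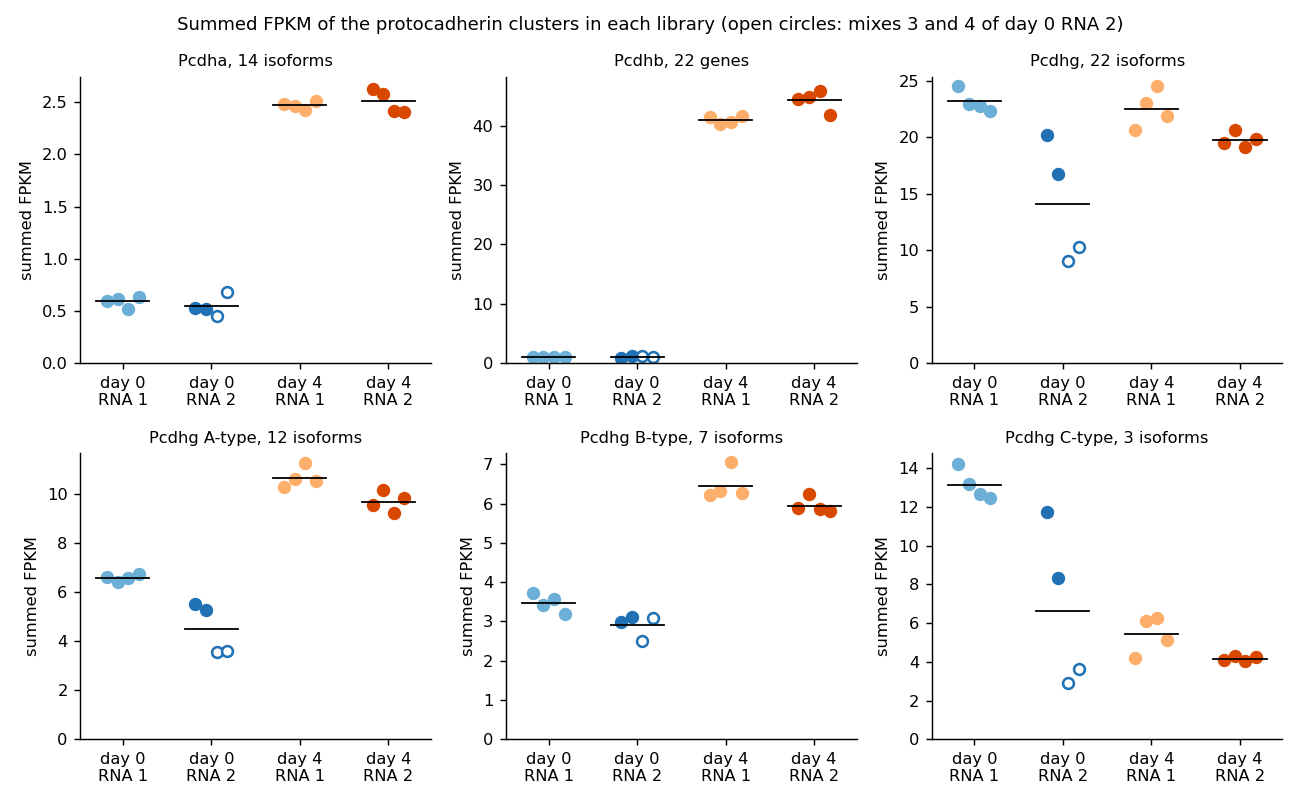
Summed FPKM (vertical axes, from 0) of the 3 clusters and of the Pcdhg A, B and C types in each of the 16 libraries, grouped by RNA sample, with a line at the mean of 4 vials and open circles for mixes 3 and 4 of day 0 RNA sample 2. Pcdha and Pcdhb separate the days in every library, and for Pcdhg and its C types the open circles lie below the other day 0 libraries.

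Among single Pcdhg isoforms, Pcdhga6 rose the most, from 0.102 and 0.12 FPKM to 1.23 and 1.27, a change of 2.68 ± 0.20 (adjusted p = 0.00624). Pcdhga7 went from 0.603 and 0.431 FPKM to 2.12 and 1.79, and Pcdhga5 from 0.219 and 0.138 to 0.863 and 0.776. Pcdhgb6, the highest B type at day 4, went from 0.764 and 0.665 FPKM to 2.31 and 2.05. For these 4 isoforms the libraries of the days did not overlap. Pcdhga3, Pcdhga4, Pcdhgb1 and Pcdhgb5 were the other isoforms that rose. With the replicate number as a block, Pcdhgb4 also passed for a rise and Pcdhga12 for a fall (adjusted p = 0.0237 and 0.0238). In the row test with this block they did not (adjusted p = 0.0903 and 0.105). Pcdhga11 fell by 1.35 ± 0.26 on the log2 scale (adjusted p = 0.0324), from 1.37 and 1.04 FPKM to 0.428 and 0.392, with every day 4 library below every day 0 library. In the row test it did not pass (adjusted p = 0.0657).

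The C types held the highest level of the cluster, that of Pcdhgc3, and its largest fall, that of Pcdhgc5. Pcdhgc3, a C type that glia also express, was the highest Pcdhg isoform, with 11.6 and 5.59 FPKM at day 0 and 5.06 and 3.86 at day 4 (adjusted p = 0.202). Its share of the Pcdhg sum was 45% at day 0 and 21% at day 4. The value of RNA sample 2 at day 0 was made of a mean of 8.35 FPKM in mixes 1 and 2 and of 2.84 in mixes 3 and 4. Without mixes 3 and 4 it fell by 1.14 (adjusted p = 0.0207), with the replicate number as a block by 0.86 (adjusted p = 0.0234), and after GC correction its change was 0.03 (adjusted p = 0.797). Its transcript had the highest GC content of the cluster, 55.4%. Pcdhgc4, which is needed for the survival of interneurons, went from 0.795 and 0.589 FPKM to 0.242 and 0.194 and fell by 1.31 ± 0.25 on the log2 scale (adjusted p = 0.031, and 0.0658 in the row test). Pcdhgc5 went from 0.693 and 0.468 FPKM to 0.118 and 0.124 and fell by 1.60 ± 0.24 (adjusted p = 0.0201). For both, mixes 3 and 4 of day 0 RNA sample 2 were low, at means of 0.238 and 0.195 FPKM against 0.94 and 0.74 in mixes 1 and 2, and the libraries of the days overlapped. Both still fell after GC correction, by 0.69 and 1.03. Pcdhg transcripts had 51.0 to 55.4% GC, a range in which the median row of at least 1 FPKM was lower at day 4. After GC correction 14 of the 22 rose and 3 fell, beside 27.5% and 24.3% of all genes. Without mixes 3 and 4 of day 0 RNA sample 2, 10 rose and 5 fell, beside 27.1% and 33.6%. With log2 averaged over vials, 7 Pcdhg isoforms rose and 2 fell, against 8 and 3 in the main fit.

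**Figure D3:**
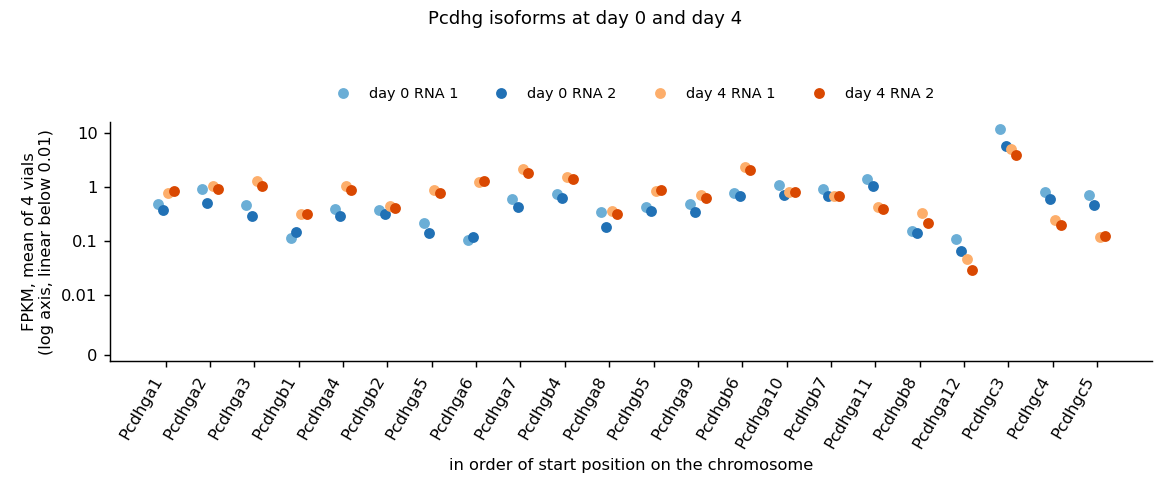
FPKM of the 22 Pcdhg isoforms (vertical log axis, linear below 0.01) in the order of their start positions, with 1 point for each of the 4 RNA samples, the mean of its 4 vials. Day 4 points are above day 0 points for most isoforms up to Pcdhgb6, and below them for Pcdhga11, Pcdhga12 and the 3 C types at the right end.

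The Pcdha isoforms were low at day 0 and stayed the lowest of the clusters at day 4, with the alternate isoforms higher and the C type Pcdhac2 lower. The summed FPKM was 0.592 and 0.544 at day 0 and 2.47 and 2.51 at day 4, a 4.38-fold ratio. The day 0 libraries lay between 0.452 and 0.678 and the day 4 libraries between 2.41 and 2.63. Pcdha4 took the largest part of this difference. It was listed at 0 in day 0 RNA sample 1 and at 0.039 FPKM in RNA sample 2, all of it from mixes 3 and 4, and reached 1.01 and 1.02 at day 4, where it held 40.7% of the Pcdha sum. Its fitted change was 3.24 ± 0.23 (adjusted p = 0.00581). Pcdha2 went from 0.0298 and 0.0565 FPKM to 0.469 and 0.436, and rose by 1.95 ± 0.17 (adjusted p = 0.00749). Pcdha5 went from 0.014 and 0.0173 FPKM to 0.241 and 0.315, a rise of 1.70 ± 0.14 (adjusted p = 0.00725). Pcdha6, Pcdha9 and Pcdha10 rose as well, each staying under 0.2 FPKM, and the other 6 alternate isoforms did not pass the test. With the replicate number as a block, Pcdha3 and Pcdha7 also passed for a rise (adjusted p = 0.0237 and 0.0309). In the row test with this block they did not (adjusted p = 0.118 and 0.109).

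The Pcdha C types did not rise. Pcdhac2, which serotonergic neurons use to space their axons, was the highest Pcdha isoform at day 0 with 0.263 and 0.148 FPKM and had 0.0285 and 0.0235 at day 4. It fell by 1.25 ± 0.22 on the log2 scale (adjusted p = 0.0267), every day 4 library was below every day 0 library, and its share of the Pcdha sum was 35.8% at day 0 and 1.05% at day 4. With a pseudocount of 1 the fall did not pass the test (adjusted p = 0.0567). Pcdhac1 was at or under 0.021 FPKM in all 4 RNA samples (adjusted p = 0.393). Taken as shares of the FPKM of all clustered members, Pcdhg held 91.6% at day 0 and 31.9% at day 4, Pcdhb 5.42% and 64.3%, and Pcdha 2.93% and 3.76%.

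The non-clustered genes held the highest levels of the family. Pcdh18, a member of the delta-2 group known to bind the adaptor Dab1, was the highest at day 4. It had 13.0 and 15.1 FPKM at day 0 and 39.6 and 40.4 at day 4, and rose by 1.51 ± 0.15 (adjusted p = 0.00978). Pcdh11x, an X-linked member of the delta-1 group, had 0.268 and 0.354 FPKM at day 0 and 4.37 and 4.82 at day 4, a rise of 3.52 ± 0.26 (adjusted p = 0.00583). Pcdh9, also of the delta-1 group, had 0.0792 and 0.0862 FPKM at day 0 and 2.11 and 1.99 at day 4, a rise of 3.56 ± 0.21 (adjusted p = 0.00473). For these 3 genes, and for the 4 that follow, all day 4 libraries were above all day 0 libraries.

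The other non-clustered genes that rose were lower in level. Pcdh17, a delta-2 protocadherin known in axons and synapses, had 0.111 and 0.0958 FPKM at day 0 and 1.67 and 1.80 at day 4. Pcdh19, a delta-2 protocadherin that acts together with N-cadherin and whose loss causes an X-linked epilepsy, had 0.144 and 0.184 FPKM at day 0 and 1.19 and 1.16 at day 4. Pcdh10, which binds the actin-regulating WAVE complex, had 0.0518 and 0.032 FPKM at day 0 and 0.692 and 0.742 at day 4. Their changes were 3.17 ± 0.21 for Pcdh17, 2.28 ± 0.22 for Pcdh19 and 2.53 ± 0.17 for Pcdh10. Pcdh20 had 0.106 and 0.123 FPKM at day 0 and 0.362 and 0.455 at day 4, a change of 1.24 ± 0.18 (adjusted p = 0.0193). Under GC correction each of these 7 genes rose too, Pcdh20 by 0.90.

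Pcdh7 and Pcdh1 fell. Pcdh7, a delta-1 protocadherin, was the highest protocadherin gene at day 0 with 17.5 and 17.1 FPKM, and had 4.27 and 4.64 at day 4. It fell by 1.94 ± 0.16 on the log2 scale (adjusted p = 0.00697) and by 1.91 after GC correction, with no overlap between the libraries of the days. Most of the fall was in 1 of its 2 transcript rows. NM_018764 had 13.6 and 11.9 FPKM at day 0 and 1.56 and 1.71 at day 4 (row test over 28213 rows, adjusted p = 0.0155), whereas NM_001122758 had 3.89 and 5.25 FPKM at day 0 and 2.71 and 2.92 at day 4 (adjusted p = 0.139, but 0.0397 without mixes 3 and 4 of day 0 RNA sample 2 and 0.0264 after GC correction). Pcdh1, a delta-1 protocadherin of epithelia, had 6.80 and 2.69 FPKM at day 0 and 0.843 and 0.724 at day 4. It fell by 2.31 ± 0.52 (adjusted p = 0.0435), but its transcript has 57.0% GC and its day 0 level in RNA sample 2 was 4.33 FPKM in mixes 1 and 2 and 1.05 in mixes 3 and 4, so that the libraries of the days overlapped. After GC correction it fell by 1.08 (adjusted p = 0.00641), and without those mixes by 2.65 (adjusted p = 0.00397). Its call was lost with a pseudocount of 1, with log2 averaged over vials and without the trend in eBayes. From mix 4 vials alone it was lost too. In the row test it did not pass (adjusted p = 0.0625), but it did with the replicate number as a block (adjusted p = 0.0198) and after GC correction (adjusted p = 0.0201).

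**Figure D4:**
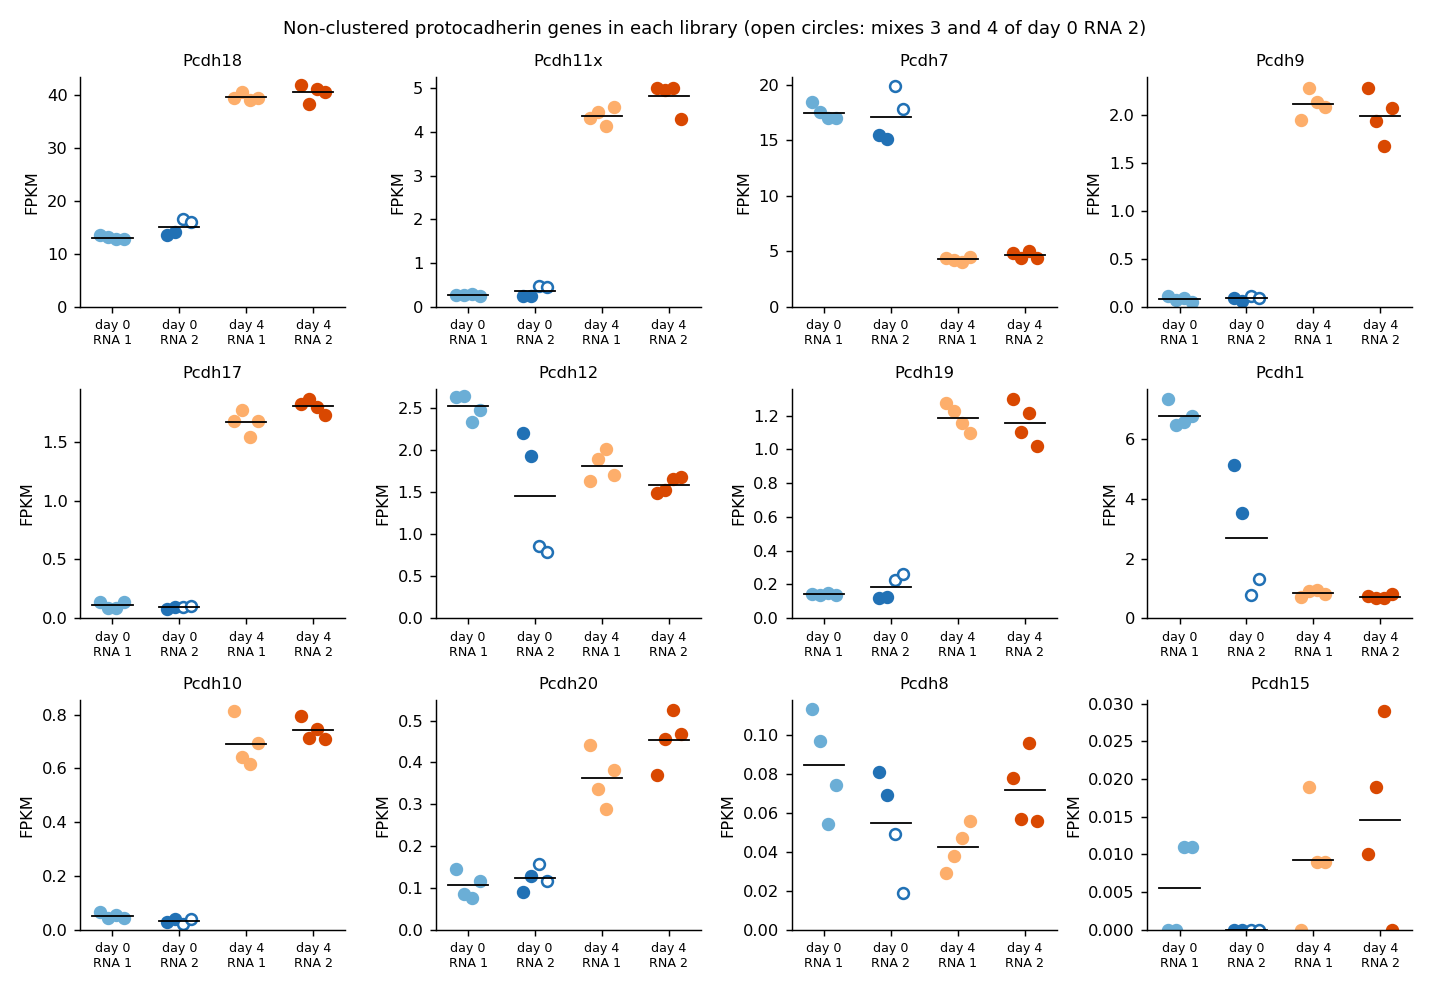
FPKM (vertical axes, from 0) of the 12 non-clustered genes in each of the 16 libraries, grouped by RNA sample, with a line at the mean of 4 vials and open circles for mixes 3 and 4 of day 0 RNA sample 2. The days separate in 8 genes, 7 of them higher and Pcdh7 lower at day 4, while in Pcdh1 and Pcdh12 the open circles lie near or below the day 4 libraries.

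The remaining 3 genes did not pass the test. Pcdh12, a protocadherin of endothelial cells, had 2.52 and 1.45 FPKM at day 0 and 1.81 and 1.59 at day 4 (adjusted p = 0.732), and its level in mixes 3 and 4 of day 0 RNA sample 2 was 0.829 against 2.07 in mixes 1 and 2. Pcdh8, known from the paraxial mesoderm and from synapses, was at or under 0.0845 FPKM in every RNA sample (adjusted p = 0.6). Pcdh15, which forms the tip links of inner ear hair cells together with Cdh23, was at or under 0.0145 FPKM (adjusted p = 0.187).

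At the level of single transcript rows, 44 of the 84 Pcdh rows tested rose and 3 fell, against 10.2% and 8.67% of all rows. Without day 0 RNA sample 1 or either day 4 RNA sample, limma called no row of the whole table. At an unadjusted p under 0.05, 32 to 37 of the 58 clustered rows were then higher and 0 to 4 lower, and 12 to 17 of the 26 non-clustered rows were higher and 1 to 3 lower, against 13.3% to 18.6% of all rows higher and 6.12% to 21.8% lower. Of the 26 non-clustered rows, 14 rose and 1 fell, and where a gene had several rows 1 row usually held most of the level. In Pcdh9, NM_001271798 had 0.055 and 0.0592 FPKM at day 0 and 1.88 and 1.76 at day 4, while each of its other 3 rows was at or under 0.146. In Pcdh10, NM_001098171 had 0.0082 and 0.0173 FPKM at day 0 and 0.464 and 0.510 at day 4, and no other row passed 0.101. In Pcdh11x the level was spread over all 4 rows, and the split differed between the day 4 RNA samples, with NM_001271810 at 1.06 and 2.23 FPKM and NR_073451 at 1.00 and 0.465. Clustered members had 1 row each, and the same changes were tested over rows with 30 rising and 2 falling of 58. Pcdha10, Pcdhga3, Pcdhga4, Pcdhgb1, Pcdhgb5, Pcdhga11 and Pcdhgc4 passed the gene test but not the row test (row adjusted p from 0.0524 for Pcdha10 to 0.1 for Pcdhgb5).

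The promoters of 9 non-clustered genes were taken from RefSeq (GRCm38.p6), with 300 bases at each of 10 start sites, mostly upstream of the start. They were searched on both strands for AGGTCA and AGTTCA, known half-sites of retinoic acid receptors. The second was in 5 of the 10, those of Pcdh7, Pcdh15, Pcdh19 and both starts of Pcdh9, and in 14% of all 32851 promoters of this length. The windows of Pcdh9 share 290 bases and hold the same single match, so the 5 promoters stand for 4 of the 9 genes. The first was in 0 of the 10 and in 16.3% of all. Below are promoters of 3 genes, shown because Pcdh7 fell and holds 2 matches, Pcdh19 rose and holds 1, and Pcdh18, the highest gene at day 4, holds none. Capitals mark AGTTCA on either strand, and each sequence reads 5′ to 3′ on the strand of its gene.
Pcdh7 (chr5:57717831-57718130, plus strand): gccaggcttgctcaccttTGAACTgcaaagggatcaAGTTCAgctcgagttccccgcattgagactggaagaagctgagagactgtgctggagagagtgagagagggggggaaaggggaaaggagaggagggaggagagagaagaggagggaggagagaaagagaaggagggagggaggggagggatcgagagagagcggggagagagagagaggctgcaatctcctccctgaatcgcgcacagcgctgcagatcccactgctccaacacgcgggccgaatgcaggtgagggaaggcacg
Pcdh19 (chrX:133688944-133689243, minus strand): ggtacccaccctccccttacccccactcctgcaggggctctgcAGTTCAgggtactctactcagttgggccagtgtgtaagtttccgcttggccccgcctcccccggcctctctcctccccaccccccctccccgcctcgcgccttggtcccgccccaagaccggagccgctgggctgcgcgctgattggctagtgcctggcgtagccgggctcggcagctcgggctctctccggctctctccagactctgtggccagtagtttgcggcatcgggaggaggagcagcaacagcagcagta
Pcdh18 (chr3:49757267-49757566, minus strand): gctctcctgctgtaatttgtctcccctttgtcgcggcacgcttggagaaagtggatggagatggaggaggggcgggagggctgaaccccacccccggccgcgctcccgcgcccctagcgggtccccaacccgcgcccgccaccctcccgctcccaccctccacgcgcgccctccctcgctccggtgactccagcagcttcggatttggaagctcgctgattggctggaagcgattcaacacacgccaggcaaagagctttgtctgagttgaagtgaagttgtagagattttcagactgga
The match was thus present in a gene that fell and in genes that rose, and absent in others that rose, such as Pcdh18, Pcdh17 and Pcdh10. The 10 promoters held 4 to 26 CpG dinucleotides with a median of 18, against a median of 7 over all promoters. Pcdh20 had the fewest, 4, and Pcdh17 the most, 26.

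The members' changes can be set beside those of rows of like GC content with a mean of at least 1 FPKM, a level that most members did not reach. The 22 Pcdhb transcripts (median 46.0% GC) had a median change of 3.43, while rows under 45% and of 45 to 50% GC had medians of 0.477 and 0.072. The 22 Pcdhg transcripts (median 53.0% GC) had a median change of 0.58, while rows of 52 to 54% GC had a median of -0.54. Pcdh8 had the highest GC content of the members, 59.1%, and a change of -0.11, where rows of 58% or more had a median of -1.593. Pcdh7, at 48.4% GC, and Pcdhac2, at 49.8%, had changes of -1.94 and -1.25, where rows of 45 to 50% GC had a median of 0.072.

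**Figure D5:**
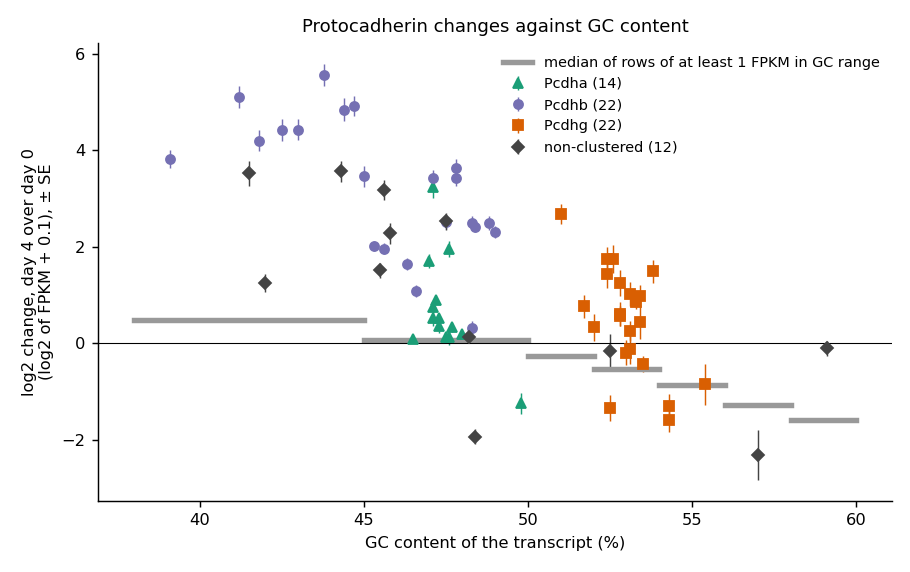
Change of each of the 70 Pcdh genes (vertical axis, log2 of FPKM + 0.1, day 4 over day 0, bars are SE) against the GC content of its transcripts, the mean over rows (horizontal axis, %), with grey bars for the median change of rows of a mean of at least 1 FPKM in a GC range, the outer bars drawn to the edge of the plot. Pcdhb genes lie above the grey bars, most Pcdhg isoforms lie above them too, and Pcdh7, Pcdh1, Pcdhac2, Pcdhga11, Pcdhgc4 and Pcdhgc5 lie below.

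Genes that act on the clusters or with the proteins were read from 3 lists. Of 18 genes for promoter choice and chromatin, such as the insulator protein Ctcf, cohesin, DNA methyltransferases and the Pcdh repressors Smchd1 and Setdb1, 2 rose and 2 fell, with a median change of 0.19, beside 16% and 14.5% of all genes and their median of -0.03. The largest change was that of Dnmt3b, the de novo methyltransferase known to methylate the cluster promoters in early embryos, which had 39.5 and 31.2 FPKM at day 0 and 2.02 and 2.01 at day 4 and fell by 4.06 ± 0.20 (adjusted p = 0.0046). Dnmt1, the maintenance methyltransferase, went from 85.2 and 49.3 FPKM to 23.4 and 20.6 and fell by 1.56 ± 0.32 (adjusted p = 0.0355). Its day 0 libraries, down to 23.6 FPKM, overlapped the day 4 libraries, up to 25.9, and after GC correction it fell by 0.935. With log2 averaged over vials its fall did not pass (adjusted p = 0.0733). Dnmt3a, the other de novo enzyme, went from 16.2 and 10.7 FPKM to 28.4 and 26.8 and rose by 1.06 ± 0.25 (adjusted p = 0.049), a call that was lost with a pseudocount of 1 (adjusted p = 0.0588), with log2 averaged over vials (0.0646) and without the trend in eBayes (0.0596). Ctcf had 53.4 and 60.6 FPKM at day 0 and 66.0 and 68.2 at day 4 (adjusted p = 0.275), and Smchd1 had 43.0 and 66.1 and then 59.8 and 68.3 (adjusted p = 0.479). Both passed without mixes 3 and 4 of day 0 RNA sample 2 (adjusted p = 0.0203 and 0.0331), and after GC correction the change of Smchd1 turned from 0.26 to -0.20. The 3 highest genes of the list, Trim28, Hells and Smc3, did not pass the test (adjusted p = 0.0889, 0.515 and 0.435). Trim28 passed for a lower level with the replicate number as a block (adjusted p = 0.00095), but its change of -1.36 was 0.19 after GC correction (adjusted p = 0.35), where Hells fell by 1.06 (adjusted p = 0.00313) and the change of Smc3 turned from 0.28 to -0.19. Trim28 and Smc3 also passed without those 2 mixes (adjusted p = 0.00516 and 0.0234). Without mixes 3 and 4 of day 0 RNA sample 2, 10 genes of this list rose and 5 fell, beside 27.1% and 33.6% of all genes.

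Of 21 genes for cleavage and cytoplasmic partners, 3 rose and 1 fell, with a median change of -0.29, also beside 16% and 14.5% of all genes. Adam10, the protease that cuts protocadherins at the membrane, went from 12.1 and 17.8 FPKM to 34.7 and 40.8 (1.35 ± 0.25, adjusted p = 0.0304), a change that was 0.88 after GC correction. Abi1, a WAVE complex subunit, went from 25.2 and 35.8 FPKM to 89.7 and 105.1, and Fyn, a kinase bound by Pcdha proteins, from 7.19 and 5.71 to 16.3 and 15.5. Ret, a receptor kinase that associates with clustered protocadherins, fell from 0.932 and 0.621 FPKM to 0.064 and 0.088. Rack1, Nckap1 and Brk1, the 3 highest, did not pass, although Rack1 did for a lower level with the replicate number as a block (change of -1.23, adjusted p = 0.0937, and 0.00304 with the block). Rack1 and Nckap1 also passed without mixes 3 and 4 of day 0 RNA sample 2 (adjusted p = 0.00624 and 0.0245). Cdh2, N-cadherin, had 48.0 and 50.1 FPKM at day 0 and a change of -0.003 (adjusted p = 0.987). Without mixes 3 and 4 of day 0 RNA sample 2, 7 genes of this list rose and 10 fell, beside 27.1% and 33.6% of all genes.

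Of 18 genes of the large atypical cadherins and the tip-link system, 17 were tested, 3 rose and 5 fell, with a median change of -0.06, beside the same 16% and 14.5% of all genes. The counts without mixes 3 and 4 of day 0 RNA sample 2 were 3 and 7, beside 27.1% and 33.6%. Fat3 and Fat4, giant cadherins of tissue polarity, rose from 0.618 and 0.667 FPKM to 4.55 and 4.85 and from 1.43 and 1.15 to 5.56 and 5.30, while Fat1 fell from 28.7 and 19.3 to 9.04 and 8.65. Celsr3, an atypical cadherin of axon tracts, fell from 0.509 and 0.222 FPKM to 0.017 and 0.01, with a change of -1.97 that was -1.28 after GC correction. Fjx1, a secreted modifier of Fat signalling, fell from 5.48 and 4.24 FPKM to 1.86 and 2.06, with a change of -1.26 that was -0.11 after GC correction. Fat2 and Myo7a fell too. Cdh23, the tip-link partner of Pcdh15, was at or under 0.017 FPKM in every RNA sample (adjusted p = 0.65). Tmc1, a channel subunit of hair cells, passed the test for a rise but was at or under 0.041 FPKM.

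Markers of cell types changed as well, in both directions, and their relation to the protocadherin changes was not tested. The samples are labelled as embryonic stem cells. The count of each marker list is to be read beside the 16% of all genes that rose and the 14.5% that fell. Of 8 markers of pluripotent cells 7 fell, namely Pou5f1, Nanog, Sox2, Zfp42, Esrrb, Dppa5a and Utf1, and none rose, with Klf4 at a change of -0.53 (adjusted p = 0.192). Their summed FPKM was 159.2 and 91.7 at day 0 and 13.3 and 8.70 at day 4, and the most abundant over the 4 RNA samples, Pou5f1, had 87.3 and 37.2 FPKM and then 1.03 and 0.692. At day 0 the mesoderm gene T was already at 72.7 and 61.3 FPKM, and it had 0.024 and 0.014 at day 4. Of the 8 mesoderm and endothelium markers, Meox1 and Pdgfra rose, T, Mesp1, Tbx6 and Kdr fell, and Cdh5 and Pecam1 did not pass (-0.38 and 0.27), with summed FPKM of 150.6 and 129.5 at day 0 and 74.9 and 70.7 at day 4, T being the most abundant at day 0, Pdgfra at day 4 and Mesp1 listed at 0 in all day 4 libraries. Of 6 endoderm markers, Gata4, Gata6, Afp and Foxa2 rose, while Sox17 and Ttr did not pass (-0.44 and 0.81), with sums of 16.5 and 14.9 FPKM at day 0 and 76.9 and 76.7 at day 4, where most of it was Gata6. After GC correction Foxa2 no longer passed (adjusted p = 0.0828), Ttr did for a rise (adjusted p = 0.0416), and the change of Sox17 was 0.21. Klf4 was then at -0.03, Cdh5 at 0.02 and Pecam1 at 0.43, and again did not pass.

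Neural markers were counted beside the same 16% and 14.5% of all genes. Of 8 markers of neural progenitors 1 rose, Pax6, from 0.134 and 0.125 FPKM to 0.424 and 0.319, and 1 fell, Sox1, with a change of -0.55 that no longer passed after GC correction (-0.245, adjusted p = 0.575). Nes, Hes5, Olig2, Fabp7, Msi1 and Nkx6-1 did not pass, with changes from -1.29 for Nkx6-1 to 0.18 for Hes5. After GC correction Hes5 passed for a rise of 0.67 (adjusted p = 0.0088) and Fabp7 for a fall of 0.84 (adjusted p = 0.0112), and the changes were -0.54 for Nkx6-1, 0.21 for Msi1 and 0.64 for Nes, none of which passed. Their sum was 33.9 and 30.8 FPKM at day 0 and 27.3 and 28.2 at day 4, with Nes the most abundant in each RNA sample and Olig2 at or under 0.017. Of 8 neuron markers 2 rose and 3 fell, and the sum was 31.7 and 18.8 FPKM at day 0 and 12.2 and 11.5 at day 4, with Stmn2 the most abundant over the 4 RNA samples and Tubb3 above it in day 0 RNA sample 1 (17.6 against 10.9 FPKM). Dcx, a microtubule protein of young neurons, had 0.008 and 0.017 FPKM at day 0 and 2.13 and 2.5 at day 4, a change of 4.42 ± 0.22 (adjusted p = 0.0046), and Rbfox3 rose as well, while Tubb3, Elavl3 and Stmn2 fell and Map2, Elavl4 and Syp did not pass (0.94, 1.04 and -0.997). After GC correction Map2 and Elavl4 passed for a rise (adjusted p = 0.0436 and 0.0493), and the change of Syp was -0.04. All 3 passed without mixes 3 and 4 of day 0 RNA sample 2, as Msi1, Nkx6-1, Ttr and Cdh5 did (adjusted p from 0.00491 for Elavl4 to 0.0391 for Msi1). Of 6 RA response genes 4 rose, among them Rarb, Stra6 and Dhrs3, Cyp26a1 fell and Hoxb1 did not pass (0.02, and 0.44 after GC correction). Rarb, the most abundant over the 4 RNA samples, went from 0.19 and 0.20 FPKM to 106.4 and 107.5, and Cyp26a1, which breaks down RA, fell from 48.9 and 52.4 to 8.43 and 9.34.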

How the data were processed

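RNA of 2 embryoid body cultures per day was sequenced in 16 libraries. The study's methods name a strand-specific total RNA kit, while the sample labels name 2 library kits. The deposited values are FPKM per RefSeq transcript (mm10), which the authors made with RSEM 1.2.18 on Bowtie2 2.1.0 alignments and scaled by trimmed mean of M values across libraries. These values carry no counts, so the depth behind each was not computed here and no count model was run. The 48 spike-in rows were left out. Gene symbols came from RefSeq (GRCm38.p6) and GENCODE M21 and matched 99.2% of rows. Which vials came from which RNA sample was taken from the study's own list of vials. Vials were averaged per RNA sample, rows were summed per gene, and log2(FPKM + 0.1) was compared with limma 3.58.1 in R 4.3.3 (eBayes with trend, Benjamini-Hochberg adjusted p of at most 0.05), with 2 RNA samples per day. GC content was that of the GENCODE M21 transcripts matched to a RefSeq row, averaged where there were several, and was found for 97.4% of rows. These transcripts can differ in length from the RefSeq transcripts that were quantified. GC correction divided the FPKM of a library by its deviation from the mean of all libraries in 20 bins of transcript GC content. The fits were tested on simulated data, where the gene-level fit with the replicate block made more false calls than its threshold allows. The simulated data held no replicate effect, so they cannot show how the block fit performs on data that hold one. Replicate numbers mark the repeat of the procedure, and the differences between the numbers correlated across days (Pearson r = 0.541 over 14094 rows), so a fit with the number as a block was an alternative. Named were all non-clustered genes, the C types and, for each cluster or list, the 3 highest and the 3 most changed in each direction, and the cell type markers. Other genes named were chosen after their values were seen. 2 genes counted in the lists, 1 of them a marker, are not reported here. The members and lists were chosen with earlier results of these data known. Figures were drawn with matplotlib 3.10.9.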

Additional observations from a re-analysis of the deposited data

How the results depend on the processing

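Of 29 named Pcdh genes under 17 alternatives, 398 of 474 values kept their side of the threshold and no called change reversed. This tally leaves out some Pcdh genes given above, among them Pcdha6, Pcdha10, Pcdhga3, Pcdhga4 and Pcdhgb5. These lost their call without day 0 replicate 2. Counts are given as higher and lower at day 4. The cluster sums had log2 ratios of 2.13 (Pcdha), 5.35 (Pcdhb) and 0.18 (Pcdhg), and leaving out 1 RNA sample in turn gave 2.073 to 2.194, 5.297 to 5.409 and -0.131 to 0.59, so the direction of Pcdhg turned without day 0 replicate 2. It was -0.01 from mixes 1 and 2 alone and 0.853 after GC correction. Pcdha was at 2.251 and Pcdhb at 5.472 under median-ratio scaling, 1.963 and 5.232 with log2 averaged over vials, and Pcdha at 1.906 from mix 4 alone. Pcdhb was at 5.416 from mixes 1 and 2 alone, 5.413 without mixes 3 and 4 of day 0 RNA sample 2 and 5.025 after GC correction.

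The main counts were 30 and 2 clustered rows, 14 and 1 non-clustered rows, 35 and 4 clustered genes, 7 and 2 non-clustered genes, 2875 and 2446 of all rows and 3281 and 2972 of all genes. Leaving out 1 RNA sample gave 0 to 25 and 0 to 3 clustered rows, 0 to 8 and 0 to 2 non-clustered rows, 0 to 30 and 0 to 4 clustered genes, 0 to 7 and 0 to 2 non-clustered genes, 0 to 3048 and 0 to 4747 rows, and 0 to 3670 and 0 to 5552 genes. The lone sample of a day is then assumed to vary like the other day. The counts of 0 came without either day 4 sample and, over rows, without day 0 replicate 1, where an unadjusted p under 0.05 gave 5238 and 6156 rows. The lists went to 0 to 2 and 0 to 4 (chromatin), 0 to 4 and 0 to 7 (partners), and 0 to 2 and 0 to 8 (atypical cadherins).

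With a mean of at least 1 FPKM, which leaves fewer genes, there were 10 and 0 clustered rows, 1 and 2 non-clustered rows, 11 and 0 clustered genes, 3 non-clustered genes higher, 2092 genes higher, 0 partners lower and 2 atypical cadherins lower. With at least 0.1 FPKM, 4 clustered and 2 non-clustered rows and 2 partners were lower. Mix 4 vials alone gave 1 and 0 clustered rows, 0 and 0 non-clustered rows, 22 and 0 clustered genes, 3 and 1 non-clustered genes, 225 and 73 rows, 1044 and 367 genes, 0 and 1 chromatin genes, 0 and 0 partners and 1 and 0 atypical cadherins. A pseudocount of 1 gave 0 clustered rows and 1 non-clustered gene lower, 0 chromatin genes higher and 3 atypical cadherins lower. Averaging log2 over vials gave 0 clustered rows, 1 non-clustered gene and 1462 rows lower, and 0 and 1 chromatin genes. Without the trend in eBayes, 1 non-clustered gene was lower and 1 chromatin gene higher. Of the list genes and markers named, Dnmt3a, Elavl3, Utf1 and Tbx6 lost their call under each of these last 3 settings, Celsr3, Esrrb and Stmn2 with the pseudocount of 1 and with log2 averaged over vials, Tmc1 with the pseudocount of 1 and without the trend, Fjx1 and Afp with the pseudocount of 1, Dnmt1 and Foxa2 with log2 averaged over vials, and Fat2 without the trend. A pseudocount of 0.01 ended the calls of Sox1 and Elavl3, and mixes 1 and 2 alone those of Tmc1 and Pax6. Without day 0 replicate 1, Adam10, Fat2, Fjx1, Myo7a, Tmc1, Zfp42, Dppa5a, Sox1, Pax6, Elavl3, Stmn2, Rbfox3, Afp and Foxa2 did not pass (adjusted p from 0.0521 for Myo7a to 0.129 for Afp), and of these Tmc1, Dppa5a, Pax6, Elavl3, Stmn2, Rbfox3, Afp and Foxa2 did not without day 0 replicate 2 either (adjusted p from 0.0502 for Elavl3 to 0.0918 for Afp).

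Mixes 1 and 2 alone gave 6 clustered and 3 non-clustered rows lower, 5667 and 7155 rows, 5177 and 6424 genes, 9 and 5 chromatin genes and 7 and 10 partners. Without mixes 3 and 4 of day 0 RNA sample 2 these were 6 and 3, 6264 and 8159, 5552 and 6880, 10 and 5, and 7 and 10. GC correction gave 3 non-clustered rows lower, 5257 and 4884 rows, 5642 and 4984 genes, 6 chromatin genes lower, 5 and 5 partners and 6 atypical cadherins higher. The day groups differ in GC bias, so this correction also takes out a day difference that follows GC. The replicate block gave 2 non-clustered rows, 5898 rows, 5961 genes and 7 partners lower. Among the genes given with a test in the text, Pcdha3, Pcdha7, Pcdhga12, Pcdhgb4, Pcdhgc3, Pcdhb1 and the row of Pcdh1 then passed. So did Trim28, Rack1, Msi1, Nkx6-1, Map2, Elavl4, Syp and Ttr. GC correction with the replicate block gave 1 clustered and 3 non-clustered rows lower, 5269 and 5273 rows, 6082 and 5567 genes, 8 chromatin genes lower, 6 and 7 partners and 5 atypical cadherins higher. The cause of these differences was not tested. Precision is limited by 2 RNA samples per day, and the values carry no counts from which depth could be read.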

Other observations

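A read-through transcript that joins the Pcdha4 first exon to the Pcdhg constant exons, Gm37013, has a row of its own (NM_001174154), outside the Pcdh symbols. Its annotated exons share 2410 bases with Pcdha exons and 446 with Pcdhg exons. It was listed at 0.0492 and 0.0173 FPKM in the day 0 RNA samples and at 0 in all day 4 libraries (adjusted p = 0.122), while Pcdha4 itself was listed at 0 and 0.039 FPKM at day 0 and at 1.01 and 1.02 at day 4. Reads of the shared first exon were divided between both rows by RSEM.

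Within the clusters, the order of the isoforms was more alike between RNA samples of a day than between days. Spearman correlations between the day 4 RNA samples were 0.925 for Pcdha, 0.991 for Pcdhb and 0.984 for Pcdhg, and between the day 0 RNA samples 0.767, 0.798 and 0.972. Between the means of day 0 and day 4 they were 0.407, 0.723 and 0.307. The start position of the 14 Pcdha isoforms and their day 4 FPKM had a correlation of -0.701, the opposite sign to that of Pcdhb.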
